A study of Danio rerio with 12 samples.

Results

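Genes of the inner retinal neurons, the bipolar, amacrine, horizontal and ganglion cells, were followed in RNA of macrophages and microglia sorted from the eyes of zebrafish larvae. The set was given as a list of 41 gene symbols, all of which were found among the 25281 genes measured. By role, 7 are genes of ganglion cells, 6 of bipolar cells, 9 of amacrine and horizontal cells, 5 are shared by several retinal classes, and 14 are pan-neuronal or presynaptic genes. Of the 41 genes, 40 had at least 1 count in some library, 5 had at least 10 counts in every library, and syt1b (a synaptotagmin gene) had 0 counts throughout.

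The sorted cells carried the red fluorescent protein mCherry and came from dissociated, enucleated larval eyes, in sorts of at most 1000 cells. The pigment layer that backs the retina (retinal pigment epithelium, RPE) had been removed by genetic ablation in 2 of the 4 groups, with 10 mM metronidazole for 24 h between 5 and 6 days post-fertilisation, while unablated larvae received no drug, so drug and ablation cannot be told apart. Unablated and ablated larvae were sampled at 2 and 4 days post-injury (dpi), with 3 libraries per group. All larvae, unablated ones included, had been kept in phenylthiourea, which stops pigmentation, from 0.25 to 5 days post-fertilisation. The transgenes that mark the sorted cells and sensitise the RPE, the promoters that drive them, the strain and the number of larvae pooled are not named in the labels. The labels do not say whether replicates were separate pools of animals; the spread that p-values rest on may therefore be technical.

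In the vertebrate retina, bipolar cells carry the signal from photoreceptors to ganglion cells, whose axons form the optic nerve. Horizontal and amacrine cells act sideways on this path, mostly through the inhibitory transmitters GABA and glycine. Macrophages and microglia are not neurons, and genes of neurons are read here in a sort of such cells. Whether their RNA came from neighbouring cells or from the sorted cells was not tested. In bulk RNA, fewer cells of a type and less RNA per cell cannot be told apart.

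The libraries held 19791633 to 38935355 counts. By a floor of 3 counts, a gene at 0 counts is bounded at 0.0771 to 0.152 CPM (counts scaled to the library's total). This bound covers sequencing depth only. Genes of macrophages were present in every library: none of 17 markers was at 0 anywhere, and together they held 0.773% to 1.73% of counts. A list of 38 photoreceptor genes ranged far more widely, from 0.00305% to 13.5%. At 2 dpi it held 13.5%, 11.7% and 0.0360% in unablated replicates 1, 2 and 3, and 1.45%, 0.174% and 0.0121% in the ablated ones. At 4 dpi the shares were 0.516%, 0.0301% and 0.598% in the unablated replicates against 0.0116%, 3.50% and 0.00305% in the ablated ones. Unablated replicates 1 and 2 at 2 dpi and ablated replicate 2 at 4 dpi therefore stood apart from the rest of their groups in photoreceptor RNA.

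The inner retinal neuron genes together made up less than 1% of the counts of every library, and their share differed widely between libraries. At 2 dpi they held 0.955% (exact binomial 95% interval 0.951% to 0.959%, counting error only), 0.157% and 0.0364% of counts in unablated replicates 1, 2 and 3. In ablated replicates 1, 2 and 3 they held 0.118%, 0.00627% and 0.0141%. At 4 dpi they held 0.202%, 0.0402% and 0.135% in unablated libraries, and 0.0109%, 0.202% and 0.00717% in ablated ones. Unablated replicate 1 at 2 dpi was the highest library for 32 of the 40 detected genes. The groups overlapped at both times, through ablated replicate 1 at 2 dpi and ablated replicate 2 at 4 dpi.

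**Figure D1:**
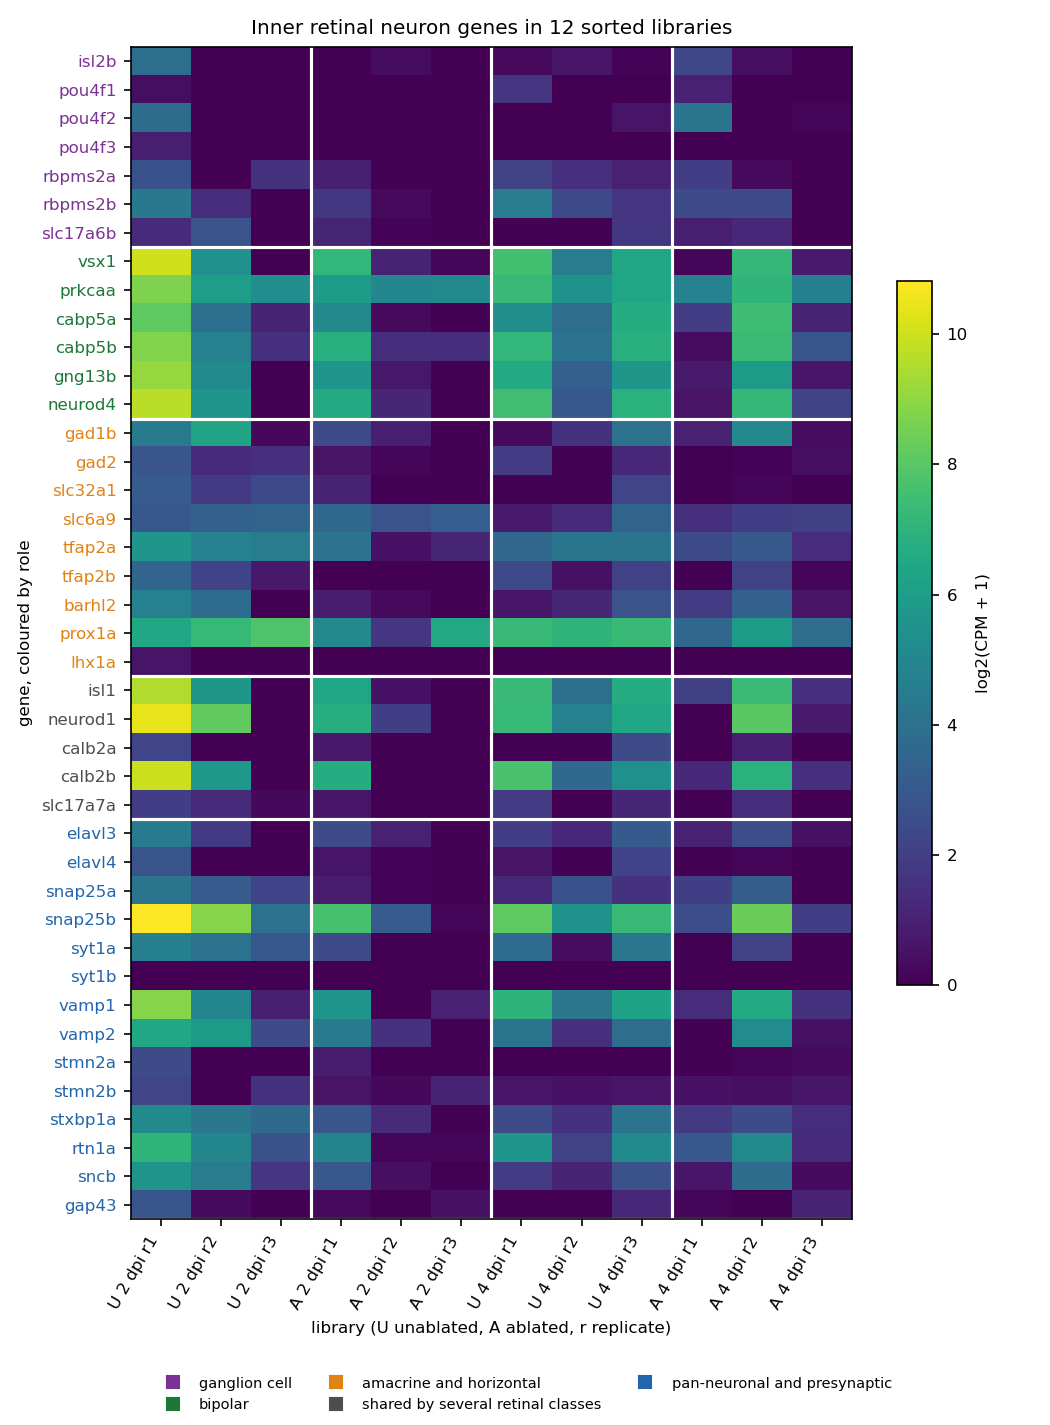
Level of each of the 41 genes (rows, coloured by role) in the 12 libraries (columns; U unablated, A ablated, r replicate) as log2(CPM + 1), from 0 (dark) upwards (bright). Bipolar and shared genes are bright in unablated replicate 1 at 2 dpi and in ablated replicate 2 at 4 dpi, prkcaa and prox1a keep some signal in all 12 libraries, and pou4f2 stands out in ablated replicate 1 at 4 dpi.

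Bipolar cell genes held more counts than the ganglion cell and the amacrine and horizontal genes in 8 of the 12 libraries. They took 37.3%, 14.8% and 11.3% of the inner retinal counts in unablated replicates 1, 2 and 3 at 2 dpi, and 41.4%, 57.4% and 25.6% in the ablated ones. At 4 dpi they took 39.6%, 27.9% and 40.6% in the unablated replicates against 29.0%, 40.5% and 51.01% in the ablated ones. In the libraries with the fewest bipolar counts most of these were prkcaa, which many other cells also express. It held 950 of 1098 and 1332 of 1406 in ablated replicates 2 and 3 at 2 dpi. At 4 dpi it held 957 of 1115 and 830 of 1242 in ablated replicates 1 and 3. In ablated replicate 2 at 2 dpi and replicates 1 and 3 at 4 dpi the bipolar lead rested on prkcaa. Amacrine and horizontal genes held 297, 751 and 668 counts there.

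The bipolar gene with the highest transcript level was vsx1 (ENSDARG00000056292; GRCz11 chromosome 17, 21063403 to 21066105, minus strand), which encodes a homeodomain factor of bipolar cells. Its mean over the 12 libraries was 145 TPM (transcript level scaled for gene length and depth). At 2 dpi vsx1 stood at 1059, 43.4 and 0 CPM in the unablated replicates against 139.9, 1.11 and 0.154 CPM in the ablated ones. The levels at 4 dpi were 185, 22.5 and 80.6 CPM in the unablated replicates against 0.113, 144 and 0.736 CPM in the ablated ones. Unablated replicate 1 at 2 dpi was far above every other library, unablated replicate 3 of the same group was at 0, and at 4 dpi ablated replicate 2 lay among the unablated libraries, so that the groups overlapped at both times. The same libraries were high for neurod4, a basic helix-loop-helix factor of bipolar and amacrine development in mice, and for gng13b, a G protein subunit of ON bipolar cells in mammals.

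The calcium-binding protein gene cabp5b (ENSDARG00000028485; GRCz11 chromosome 3, 15296824 to 15317392, plus strand), whose mammalian counterpart marks bipolar cells, was detected in every library. It stood at 434, 24.96 and 1.86 CPM in the unablated replicates against 109.8, 1.70 and 1.67 CPM in the ablated ones at 2 dpi. At 4 dpi its levels were 142, 16.3 and 108 CPM in the unablated replicates against 0.284, 165 and 6.04 CPM in the ablated ones. The groups overlapped at both times, and ablated replicate 2 was the highest library at 4 dpi. Its paralog cabp5a was high in the same libraries, with 277 CPM at most.

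The protein kinase C gene prkcaa, a marker of ON bipolar cells in mammals that many other cells also express, varied less between libraries. At 2 dpi it held 422, 63.3 and 38.3 CPM in unablated replicates, and ablated ones held 61.4, 31.1 and 34.2 CPM, so that the groups overlapped. At 4 dpi it held 156, 44.5 and 84.0 CPM in unablated replicates, and ablated ones held 27.1, 134 and 24.4 CPM. It was not at 0 in the library where vsx1 was: unablated replicate 3 at 2 dpi held 38.3 CPM of prkcaa and 0 counts each of vsx1, neurod4 and gng13b.

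Among genes shared by several classes, neurod1 (ENSDARG00000019566; GRCz11 chromosome 9, 44291721 to 44295071, minus strand), a basic helix-loop-helix factor of photoreceptors and amacrine cells, and calb2b (ENSDARG00000036344; GRCz11 chromosome 7, 24681278 to 24699985, minus strand), which encodes a calretinin, were the highest, with means of 129 and 155 TPM. At 2 dpi neurod1 stood at 1351, 287.5 and 0.0282 CPM in the unablated replicates against 106, 3.05 and 0.0257 CPM in the ablated ones. By 4 dpi the unablated and ablated libraries interleaved, at 152, 26.0 and 88.2 CPM in the unablated replicates against 0, 261 and 0.736 CPM in the ablated ones. Unablated replicates held 972, 53.4 and 0.0282 CPM of calb2b at 2 dpi, where ablated ones held 102, 0 and 0.0514 CPM. At 4 dpi calb2b was at 207, 12.03 and 42.4 CPM without ablation, and at 1.39, 117 and 1.77 CPM after it. The calb2b groups overlapped at both times. The LIM homeodomain gene isl1, used by bipolar, amacrine and ganglion cells, had 0 counts in unablated replicate 3 at 2 dpi and 741 CPM in replicate 1 of the same group. The proportions also differed between the high libraries: neurod1 had 1.28 counts per vsx1 count in unablated replicate 1 at 2 dpi and 6.63 in replicate 2.

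Ganglion cell genes held the fewest counts of the 5 role groups in 10 of the 12 libraries. They held 0.00552%, 0.000753% and 0.000209% of counts in unablated replicates at 2 dpi, and 0.000447%, 5.9e-05% and 5.1e-06% in ablated ones. At 4 dpi they held 0.00286%, 0.000674% and 0.000605% in the unablated replicates against 0.00308%, 0.00064% and 1.47e-05% in the ablated ones. Ablated replicate 1 at 4 dpi was the highest library at that time, while its bipolar share, 0.00316% of counts, was the lowest of the 12.

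In that library ganglion cell genes took 28.2% of the inner retinal counts, against 0.0364% to 1.67% in the other 11. It held 612 counts (17.4 CPM) of pou4f2 (ENSDARG00000069737; GRCz11 chromosome 1, 36436936 to 36440301, plus strand), a POU-domain factor of retinal ganglion cells, beside 141 counts of isl2b, a LIM homeodomain gene of ganglion cells in zebrafish, and 35 of pou4f1. The same library held 4 counts of vsx1 and 0 of neurod1. Elsewhere pou4f2 had 291 counts in unablated replicate 1 at 2 dpi, 17 in unablated replicate 3 and 5 in ablated replicate 3 at 4 dpi, and 0 in the other 8 libraries. The related pou4f3 had 20 counts in unablated replicate 1 at 2 dpi and 0 elsewhere; it overlaps another annotated gene, and the library method does not mark strand.

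The RNA-binding protein gene rbpms2b, a ganglion cell gene, was spread more evenly, at 19.7, 1.67 and 0.0282 CPM in the unablated replicates against 2.35, 0.196 and 0 CPM in the ablated ones at 2 dpi. Its 4 dpi levels were 22.9, 4.33 and 2.12 CPM in the unablated replicates against 4.57, 4.48 and 0 CPM in the ablated ones. Its paralog rbpms2a and slc17a6b, the gene of a vesicular glutamate transporter, did not exceed 5.86 CPM anywhere.

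**Figure D2:**
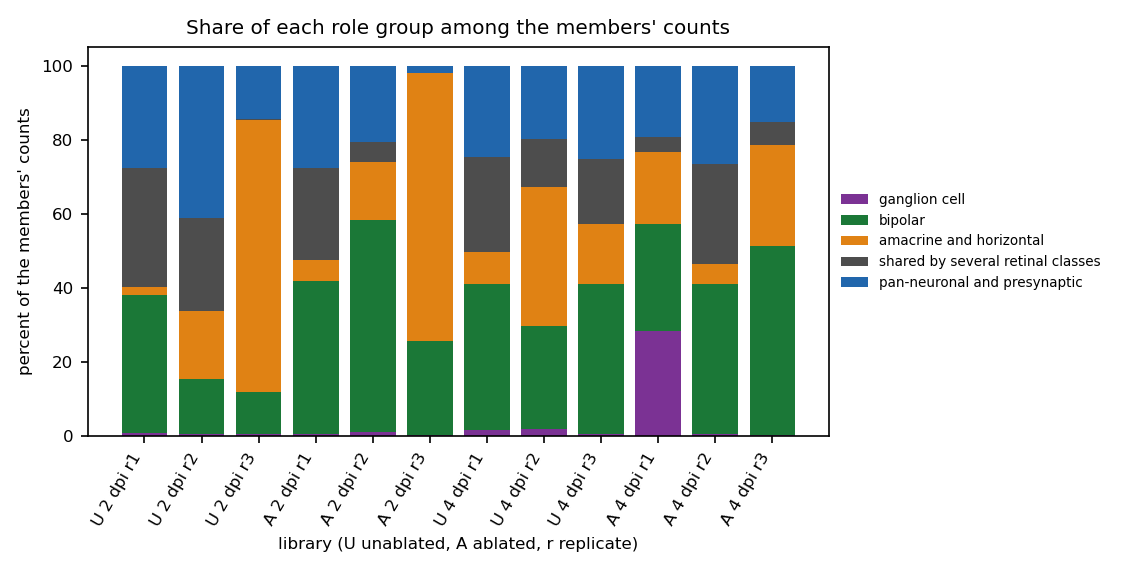
Make-up of the inner retinal counts of each of the 12 libraries (x axis; U unablated, A ablated, r replicate), as the percent held by each role group (y axis, stacked to 100). Ganglion cell genes stand out in ablated replicate 1 at 4 dpi, at 28.2%, and amacrine and horizontal genes take 73.5% and 72.3% in unablated and ablated replicate 3 at 2 dpi. Most of these amacrine and horizontal counts are prox1a.

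Summed as a class, amacrine and horizontal cell genes varied least between libraries in the unablated groups. They held 0.0212%, 0.0287% and 0.0268% of counts in unablated replicates at 2 dpi, and 0.00679%, 0.000973% and 0.0102% in the ablated ones. At 4 dpi they held 0.0174%, 0.0151% and 0.0215% in the unablated replicates against 0.00213%, 0.0114% and 0.00197% in the ablated ones. The groups did not overlap at either time in this sum, of which prox1a made up most in several libraries. At 4 dpi prox1a and tfap2a were the only tested genes of the set whose own groups did not overlap. Neither the separation nor the steadiness of the sum was checked without prox1a, so neither is shown for the other genes of the class. Single genes of the class varied more: gad1b stood at 21.9, 79.7 and 0.169 CPM in the unablated replicates at 2 dpi.

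Over the 12 libraries the gene of this class with the most counts was prox1a (ENSDARG00000055158; GRCz11 chromosome 17, 32822588 to 32865788, minus strand), which encodes a homeodomain factor of horizontal cells and, outside the neural retina, of lymphatic endothelium. It stood at 85.0, 152 and 228 CPM in the unablated replicates against 32.7, 2.23 and 92.3 CPM in the ablated ones at 2 dpi. At 4 dpi prox1a held 87.5, 72.1 and 89.6 TPM in unablated replicates, against 6.14, 32.6 and 7.49 TPM in ablated ones, and its groups did not overlap. In CPM its means at 4 dpi were 147 ± 16.5 and 27.6 ± 26.5 (SD, n = 3 each). It was the 1 gene of the set that peaked in unablated replicate 3 at 2 dpi, the library in which vsx1 was at 0.

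The level of prox1a was set beside a list of 5 epithelial genes (epcam, cdh1, cldnb, krt4 and krt5) and the photoreceptor list. The epithelial list held 0.0249%, 0.151% and 0.454% of counts in unablated and 0.0358%, 0.0130% and 0.121% in ablated replicates at 2 dpi. At 4 dpi it held 0.209%, 0.318% and 0.164% in the unablated replicates against 0.0387%, 0.0452% and 0.0275% in the ablated ones, and none of its genes was at 0 in any library. Over the 12 libraries log10 CPM of prox1a gave Pearson r = 0.835 and Spearman rho = 0.86 with the epithelial list, and r = 0.29 and rho = 0.238 with the photoreceptor list. Within the 6 libraries of 2 and of 4 dpi the values for the epithelial list were r = 0.813 and 0.887, and those for the photoreceptor list 0.073 and 0.671. Without the 2 libraries farthest from each list's median they were 0.752 and 0.151. At 4 dpi prox1a and the epithelial list were both lower in every ablated library, a difference that the r at that time takes in. For cabp5b, r over the 12 libraries was 0.768 with the photoreceptor and 0.014 with the epithelial list, and at 4 dpi 0.813 and 0.469. These correlations, computed for the 5 genes with at least 10 counts in every library, were chosen after the values were seen, share library totals, and carry no p-value; the part of epithelial RNA in the level of prox1a was not tested.

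The AP-2 factor gene tfap2a (ENSDARG00000059279; GRCz11 chromosome 24, 8721676 to 8732519, minus strand), a gene of amacrine cells that skin also uses, was also detected in every library. It stood at 48.2, 26.6 and 23.0 CPM in the unablated replicates against 16.5, 0.426 and 1.26 CPM in the ablated ones at 2 dpi. At 4 dpi its levels were 10.9, 17.4 and 16.7 CPM in the unablated replicates against 4.60, 6.997 and 1.56 CPM in the ablated ones. At both times every ablated library lay below every unablated one. With the epithelial list tfap2a gave r = 0.479 over 12 libraries, 0.354 at 2 dpi and 0.89 at 4 dpi over 6 libraries each. With the photoreceptor list it gave 0.569, 0.624 and 0.589. Without the 2 libraries farthest from each list's median, r was 0.147 with the epithelial and 0.372 with the photoreceptor list. At 4 dpi tfap2a and the epithelial list were both lower in every ablated library, a difference that this r takes in. The part of either kind of RNA was not tested.

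Genes of inhibitory transmission were detected in most libraries at low levels. Of these, gad1b and slc6a9 had counts in all 12 libraries, gad2 in 11 and slc32a1 in 8. For gad1b, an enzyme gene of GABA synthesis, the highest level was 79.7 CPM in unablated replicate 2 at 2 dpi, above the 21.9 CPM of replicate 1. The second such enzyme gene, gad2, held 6.14, 1.47 and 1.75 CPM in the unablated replicates against 0.471, 0.0982 and 0 CPM in the ablated ones at 2 dpi. The vesicular GABA and glycine transporter gene slc32a1 held 7.54, 2.53 and 4.46 CPM in the unablated replicates against 1.09, 0 and 0 CPM in the ablated ones at 2 dpi. For both, the groups did not overlap at that time. The glycine transporter gene slc6a9 ranged only from 0.706 to 11.7 CPM, the latter in ablated replicate 1 at 2 dpi, and overlaps another annotated gene. The horizontal cell gene lhx1a had at most 12 counts in a library.

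Presynaptic and pan-neuronal genes were high in the same libraries as the bipolar genes. The highest was snap25b (ENSDARG00000058117; GRCz11 chromosome 17, 12297984 to 12389259, minus strand), which encodes a SNARE protein of synaptic vesicle fusion, with a mean of 249 TPM, the highest of the 41 genes. It stood at 1797, 459 and 15.2 CPM in the unablated replicates against 202, 7.76 and 0.103 CPM in the ablated ones at 2 dpi. Levels at 4 dpi were 280.2, 44.8 and 159 CPM in the unablated replicates against 4.91, 337 and 2.94 CPM in the ablated ones. Of these, unablated replicate 1 was highest at 2 dpi, and ablated replicate 2 was the highest of the 6 libraries at 4 dpi, the other 2 ablated libraries being the lowest. The vesicle SNARE gene vamp1, second in this class at a mean of 50.4 TPM, peaked in unablated replicate 1 at 2 dpi, at 466 CPM, and at 4 dpi unablated replicates held 125, 18.6 and 76.7 CPM, where ablated ones held 1.59, 95.8 and 2.00 CPM. Photoreceptors, too, use snap25b, vamp1 and 8 further genes of the set, and without these 10 genes the set held 0.00484% to 0.564% of counts.

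In unablated replicate 3 at 2 dpi the presynaptic and pan-neuronal genes summed to 1879 counts and the bipolar genes to 1463, of which prkcaa held 1358, cabp5b 66 and cabp5a 39, with the other 3 bipolar genes at 0. In that library snap25a (the paralog of snap25b) had 124 counts, syt1a (a calcium sensor of vesicle release) 246 and stxbp1a (a syntaxin-binding protein) 434, beside 158 of slc32a1 and 62 of gad2. There isl1, vsx1, neurod4 and gng13b had 0 counts, neurod1 and calb2b had 1 each, and 24 of the 38 photoreceptor genes were at 0. Among further genes of this class, vamp2, the reticulon gene rtn1a, sncb (a synuclein gene) and elavl3 (an RNA-binding protein of neurons) peaked in unablated replicate 1 at 2 dpi, at 87.5, 134.8, 47.8 and 20.4 CPM. Of the shared genes, calb2a did not exceed 4.79 CPM and slc17a7a, a vesicular glutamate transporter gene, 2.89 CPM. The genes of growing axons and young neurons were sparse: elavl4, stmn2a, stmn2b and gap43 did not exceed 134 counts in any library, and stmn2a (a stathmin gene) had 0 counts in all 3 unablated libraries at 4 dpi. Counts of paralogs such as snap25a and snap25b depend on how reads that fit both were treated, which the labels do not state.

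**Figure D3:**
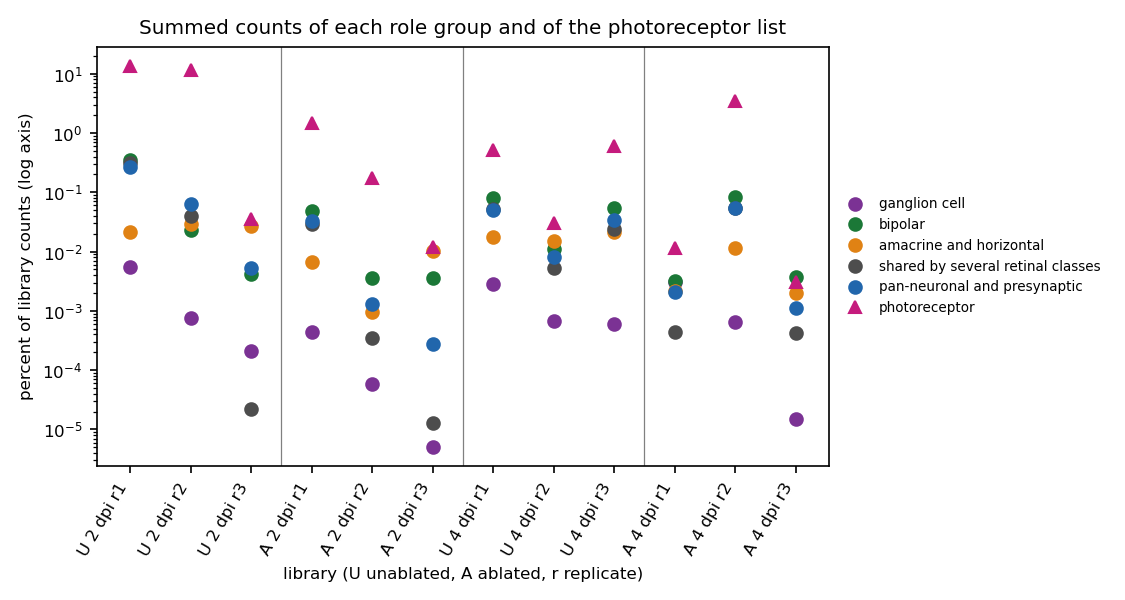
Summed counts of each role group (circles) and of the photoreceptor list (triangles) as percent of library counts on a log axis, in the 12 libraries (x axis; U unablated, A ablated, r replicate; vertical lines part the 4 groups). Bipolar, shared and presynaptic sums tend to be high where the photoreceptor list is high, but not in every library. Unablated replicate 2 at 2 dpi held 11.7% photoreceptor and 0.0232% bipolar counts, against 0.516% and 0.0799% in unablated replicate 1 at 4 dpi. The amacrine and horizontal sum lies between 0.0151% and 0.0287% in all 6 unablated libraries. The largest gene of that sum in those libraries is prox1a.

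The share of the whole set across libraries went with that of the photoreceptor list. On log10 CPM over 12 libraries Pearson r was 0.855 and Spearman rho 0.825. With group means removed r was 0.869, without the 2 libraries farthest from the median photoreceptor share it was 0.766, and within the 6 libraries of 2 and of 4 dpi it was 0.816 and 0.961. Without the 10 genes that photoreceptors also use it was 0.806. Of the 2 further lists compared, RPE genes gave r = 0.713 and rho = 0.804. For them r was 0.527 with group means removed, 0.851 without the 2 libraries farthest from the median RPE share, 0.68 at 2 dpi and 0.837 at 4 dpi. Müller glia genes gave r = 0.538, with 0.504 with group means removed, 0.287 without the 2 farthest libraries, 0.911 at 2 dpi and -0.094 at 4 dpi. No p-value is attached, because the genes were proposed with results of these libraries known.

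The ratio between the 2 kinds of RNA was not fixed. Photoreceptor genes had 37.8, 507 and 8.74 counts per bipolar count in unablated replicates 1, 2 and 3 at 2 dpi, and 29.6, 48.4 and 3.34 in the ablated ones. At 4 dpi there were 6.45, 2.68 and 10.9 in the unablated replicates against 3.66, 42.7 and 0.833 in the ablated ones. In the libraries with the fewest bipolar counts this ratio is set mostly by prkcaa. Unablated replicate 2 at 2 dpi, with the highest ratio, also held the most RPE RNA, at 0.342% of counts against 0.000108% to 0.00861% in the other 11. The list of 11 Müller glia genes spanned 0.1145% to 0.874%. Its retinal carrier protein gene, rlbp1a, had 4437 counts in unablated replicate 1 and 0 in unablated replicate 3 at 2 dpi. In the latter library 5 of the 11 genes were at 0, and in ablated replicate 3 at 2 dpi 6 were, so those sums are of the remaining genes only. Lists for myelinating glia and peripheral sensory neurons, other cells that an eye sort could hold, stayed between 0.00833% and 0.0227% and between 0.00646% and 0.0164%. Of the 6 genes of the first list 1 to 5 were at 0 counts in a library, and of the 7 of the other 2 to 5. In ablated replicate 3 at 2 dpi 1 gene held the whole myelinating glia sum. These steady sums therefore rest on few genes and need not follow those cell types.

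**Figure D4:**
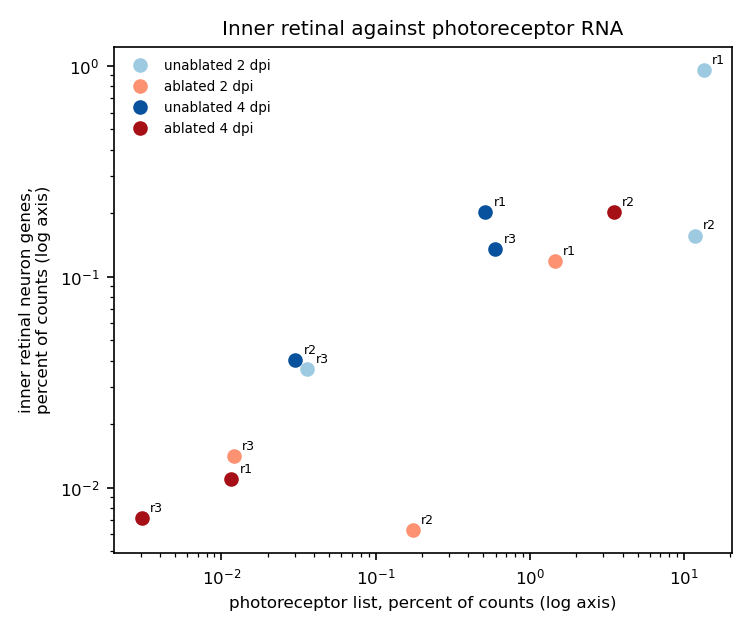
Share of counts from the inner retinal neuron genes (y axis, log) against that from the photoreceptor list (x axis, log), 1 point per library, coloured by group and labelled by replicate. The points run from 0.00305% and 0.00717% (ablated replicate 3 at 4 dpi) to 13.5% and 0.955% (unablated replicate 1 at 2 dpi), and ablated replicate 2 at 2 dpi lies below the trend.

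Whether ablation of the RPE went with a change of these genes was tested at each time with edgeR on 3 against 3 libraries. At 2 dpi the expression filter kept 31 of the 41 genes. All 31 had a lower mean level in ablated libraries; the median log2 fold change (ablated over unablated) was -3.26 against -0.12 for all 16048 genes tested. The median was -1.85 without unablated replicate 1 and -7.21 without ablated replicate 1. limma on log2(TPM + 1), the exception among the methods tried, tested 23 and put slc6a9 higher. None of the 31 passed an adjusted p of 0.05, and neither did any other gene (0.0% of the genes tested). Unadjusted p was under 0.05 for 2 of the 31 and for 2691 of all genes. A filter on low counts keeps a gene of this kind through the group in which it is high, so the count and median describe only those 31. The 10 untested genes were pou4f1, pou4f2, pou4f3, lhx1a and syt1b, all at 0 counts in the ablated libraries at 2 dpi, and isl2b, calb2a, elavl4, stmn2a and gap43.

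The smallest p at 2 dpi belonged to tfap2b (ENSDARG00000012667; GRCz11 chromosome 20, 47686629 to 47704973, minus strand), the second AP-2 gene of amacrine cells. It held 10.4, 3.54 and 0.677 CPM in the unablated replicates against 0.0294, 0 and 0.0514 CPM in the ablated ones, without overlap. Its log2 fold change was -7.42 (SE 1.67, edgeR adjusted p = 0.114). The ablated replicates held 1, 0 and 2 counts of tfap2b, under the floor of 3, so the size of this fold depends on the prior count of the fit. For snap25a (ENSDARG00000020609; GRCz11 chromosome 20, 34913069 to 34956230, plus strand) the levels were 16.8, 7.48 and 3.50 CPM in the unablated replicates against 0.794, 0.0655 and 0 CPM in the ablated ones, again without overlap. Its log2 fold change was -5.11 (SE 1.84, edgeR adjusted p = 0.244), with ablated replicates 2 and 3 under the floor of 3 counts.

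Next by p came gad2 (-4.14, SE 1.72), prkcaa (-2.21, SE 0.995) and barhl2, a homeobox gene of amacrine cells (-5.35, SE 2.62), with edgeR adjusted p of 0.305, 0.338 and 0.373. The genes of highest mean TPM had wide errors: vsx1 had -3.10 (SE 3.27), neurod1 -4.04 (SE 3.22), calb2b -3.47 (SE 3.54) and snap25b -3.56 (SE 2.55), each with its highest level in unablated replicate 1. The value nearest 0 was that of slc6a9, at -0.13 (SE 0.437).

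In 7 of the 31 genes every ablated library lay below every unablated one at 2 dpi, against 6.69% of all genes tested. They were gad2, slc32a1, snap25a, stxbp1a, syt1a, tfap2a and tfap2b, that is, genes of amacrine cells and of presynaptic terminals and no bipolar gene. In none of the 31 did every ablated library lie above, against 21.4% of all genes. As the filter keeps such genes through the group in which they are high, both counts describe only those 31. Replicates with the same number at 2 dpi share a date in their titles, and within each date the set's share was lower in the ablated library, by 8.07-fold, 24.96-fold and 2.58-fold for replicates 1, 2 and 3. In replicate 3 prox1a and prkcaa held most of the set's counts in both libraries, so the size of that fold is mostly theirs. There prkcaa differed little, at 38.3 CPM in the unablated and 34.2 CPM in the ablated library. Without prox1a, prkcaa and slc6a9, left out after the data were seen, the set held 0.904%, 0.134% and 0.00883% in unablated replicates. In the ablated ones it then held 0.108%, 0.00235% and 0.000614%, so that replicate 3 fell by a larger fold than with these genes kept. Within these dates 39, 30 and 24 of the 41 genes were lower in the ablated library, and 19 were lower in all 3. Another 1, 6 and 10 genes were equal in both libraries. The same counts were not made over all genes, so they describe the set only and do not show whether it is unusual.

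By class, the within-date differences in share at 2 dpi were uneven. Bipolar genes were 7.27-fold, 6.44-fold and 1.14-fold lower in ablated replicates 1, 2 and 3, and presynaptic genes 8.08-fold, 50.01-fold and 19.5-fold lower. Amacrine and horizontal genes were 3.12-fold, 29.56-fold and 2.625-fold lower. Ganglion cell genes were 12.35-fold, 12.77-fold and 40.62-fold lower, and shared genes 10.47-fold, 111.5-fold and 1.756-fold lower. In replicate 3 these last 2 classes rest on few counts, 74 against 2 for ganglion cell and 8 against 5 for shared genes. In replicate 3 the bipolar value is mostly that of prkcaa, with 1358 of 1463 bipolar counts in the unablated and 1332 of 1406 in the ablated library. Photoreceptor RNA moved in the same direction, 9.27-fold, 67.5-fold and 2.99-fold lower, while macrophage markers held 0.773%, 1.06% and 1.30% of counts in unablated and 1.60%, 1.66% and 1.64% in ablated replicates. The part of photoreceptor RNA in these differences was not tested. An alternative added after the data were seen left out unablated replicates 1 and 2, the 2 libraries with the highest photoreceptor share. Against a single unablated library, it turned the log2 ratio of the set's share from -3.05 to 0.34. The median log2 fold change turned to 3.097. Both omitted libraries were unablated and held the highest shares of the set at 2 dpi, so a shift upwards was built into this choice. Ablated replicate 1 was kept, with 1.45% photoreceptor RNA against 0.0360% in the unablated library kept.

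At 4 dpi 31 genes of the set were tested, and 24 had a lower and 7 a higher mean level in ablated libraries; the median log2 fold change was -0.86, against -0.04 for all 16313 genes. It was -0.18 without unablated replicate 1, and -0.52, -2.78 and -0.44 without ablated replicates 1, 2 and 3. None passed the edgeR test, where 3.71% of all genes did. Unadjusted p was under 0.05 for 2 of the 31 and for 3371 of all genes. The smallest p belonged to prox1a, at a log2 fold change of -2.45 (SE 0.644, edgeR adjusted p = 0.0943), and to tfap2a, at -1.80 (SE 0.567, edgeR adjusted p = 0.138). These were the 2 genes in which every ablated library lay below every unablated one, against 14.7% of all genes tested. None lay wholly above, against 15.9%.

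The next by p at 4 dpi were gad2 (-3.07, SE 1.63), stxbp1a (-1.35, SE 0.857) and syt1a (-3.22, SE 2.41), with edgeR adjusted p of 0.362, 0.461 and 0.545. The 7 genes with a higher mean in ablated libraries were isl2b, gad1b, barhl2, sncb, snap25a, vamp2 and cabp5a, none with a log2 fold change above the 2.36 (SE 2.00) of isl2b. For isl2b the level in ablated replicate 1 was 4.00 CPM and no other library at 4 dpi exceeded 0.578 CPM. Bipolar genes lay close to 0 relative to their error, with vsx1 at -1.04 (SE 2.15) and cabp5b at -0.68 (SE 1.87).

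**Figure D5:**
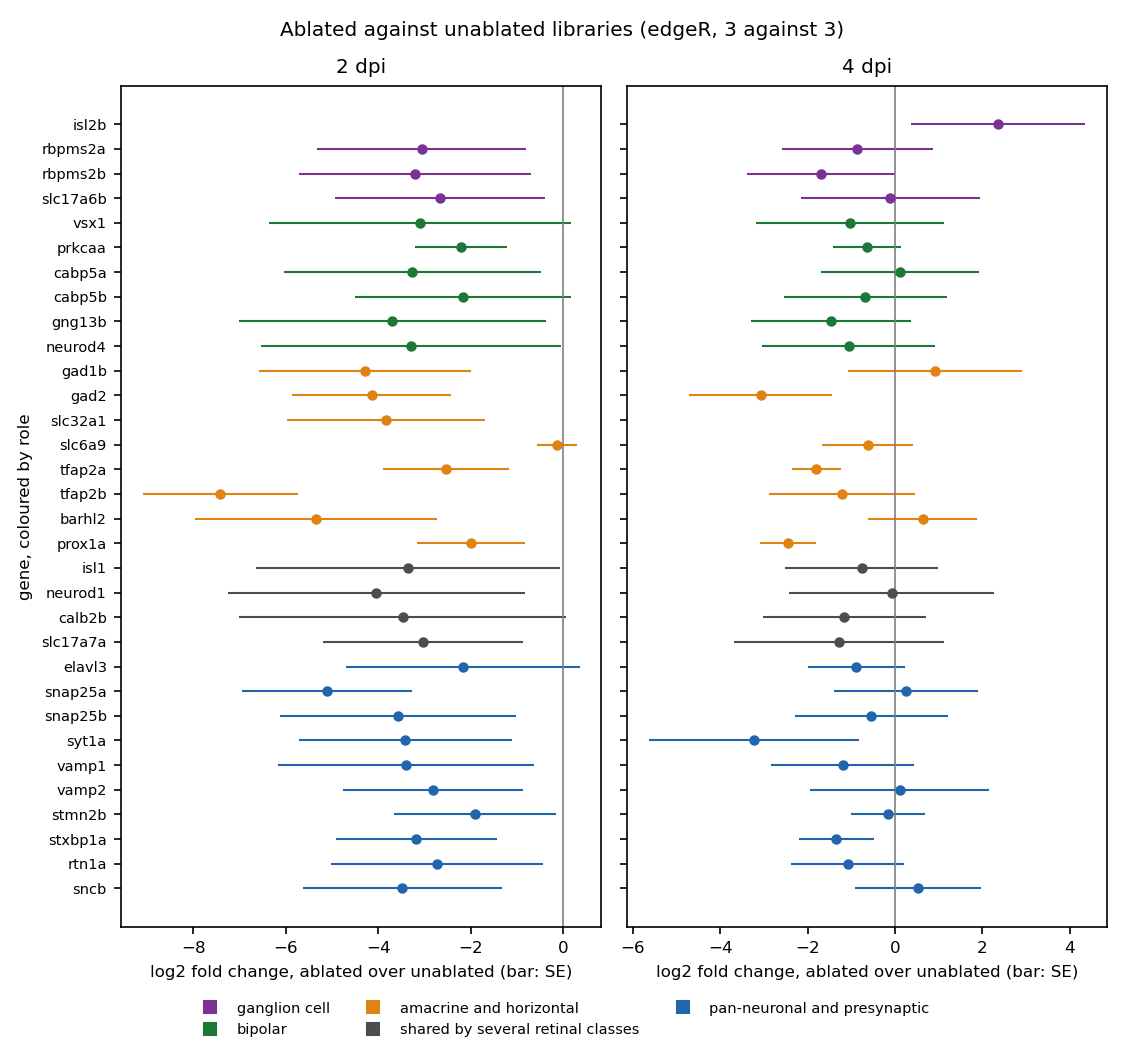
Log2 fold change, ablated over unablated, of each gene tested at 2 dpi (left) and 4 dpi (right), as points coloured by role (edgeR, 3 against 3 libraries). Bars are 1 SE, derived from the fold and the edgeR F statistic. A missing point is a gene not tested at that time. All points lie left of 0 at 2 dpi, with tfap2b farthest, and prox1a and tfap2a have the shortest bars among the lower genes at 4 dpi.

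These counts depended on ablated replicate 2 at 4 dpi, the library with 3.50% photoreceptor RNA. Without it edgeR called 7 genes of the set, all lower in ablated libraries, where it called 8.32% of all genes. They were vsx1 (log2 fold change -7.73), neurod1 (-7.83), gng13b (-6.21), isl1 (-5.13), snap25b (-5.26), vamp1 (-5.26) and prox1a (-3.50), at edgeR adjusted p of 0.00241 for prox1a and 0.0268 to 0.0463 for the others. No other library, left out in turn, gave a call in the set at either time. DESeq2 called 2 genes at 2 dpi, tfap2b (adjusted p = 5.53e-05) and snap25a (adjusted p = 0.00911), where it called 11.9% of all genes. At 4 dpi it called prox1a (adjusted p = 0.000189) and tfap2a (adjusted p = 0.0334), where it called 14.7%. limma on log2(TPM + 1) called prox1a at 4 dpi (adjusted p = 0.0446), where it called 8.97%.

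The difference between the ablation effects at 4 and 2 dpi was tested in 1 model of all 12 libraries, with 37 genes of the set. None passed, and neither did any other gene (0.0%), with 2 of the 37 and 1059 of all 18079 genes at an unadjusted p under 0.05. The estimate was above 0, a less negative or higher value at 4 dpi, in 33 of the 37 genes. That direction rested on single libraries: the median difference of the set, 2.17 with all 12, was -0.26 without unablated replicate 1 at 2 dpi and -0.19 without ablated replicate 2 at 4 dpi, and 6.15 without ablated replicate 1 at 2 dpi. The 2 smallest p belonged to tfap2b (6.13, SE 2.44, edgeR adjusted p = 0.821) and pou4f2 (edgeR adjusted p = 0.821), the latter resting on the 612 counts of ablated replicate 1 at 4 dpi.

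Between the times, larval age and the date in the titles change together and cannot be told apart. From 2 to 4 dpi in unablated libraries none of 37 genes passed, where edgeR called 0.868% of all genes, and 34 had a lower mean at 4 dpi. The median log2 fold change was -1.66, and it turned to 0.605 without unablated replicate 1 at 2 dpi. In ablated libraries none passed either, where 1.29% of all genes did, and 28 had a higher mean at 4 dpi. There the median was 0.53; it turned to -1.67 without ablated replicate 2 at 4 dpi, and was 4.86, 0.061, 0.24 and 1.02 without ablated replicates 1, 2 and 3 at 2 dpi and ablated replicate 3 at 4 dpi. The smallest unadjusted p in unablated libraries belonged to sncb (log2 fold change -3.11, SE 2.00, edgeR adjusted p = 0.536). In ablated libraries it belonged to tfap2b (5.09, SE 1.91, edgeR adjusted p = 0.243), which stood at 0.0284, 3.37 and 0.147 CPM there at 4 dpi.

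A further list of 55 neuronal genes outside the set was read for the same pathway, synaptic proteins, neurofilaments, transmitter transporters and class markers. At 2 dpi 38 were tested, 36 lower and 2 higher in ablated libraries, where 8694 of all 16048 genes tested were lower. The median log2 fold change was -3.04, and neither these nor any other gene was called. At 4 dpi 32 were tested, 24 lower and 8 higher, where 8588 of all 16313 genes tested were lower. The median was -0.86 and none was called, where 3.71% of all genes were. The expression filter keeps such genes through the group in which they are high, so these counts and medians describe only the genes tested. The smallest p at 4 dpi belonged to nrgna, a neurogranin gene (-3.24, SE 0.691, edgeR adjusted p = 0.0568), with 14.2, 12.3 and 38.7 CPM in unablated replicates. The surface glycoprotein gene thy1 came next, at -2.24 (SE 0.495, edgeR adjusted p = 0.0664). It stood at 298, 1375 and 3425 CPM in unablated replicates 1, 2 and 3 at 2 dpi, the same order as the epithelial list. That order covers only these 3 libraries, and the part of epithelial RNA in the level of thy1 was not tested. At 2 dpi the smallest p belonged to the signalling adaptor genes ywhag1 (-7.98, SE 1.35, edgeR adjusted p = 0.1125) and ywhag2 (edgeR adjusted p = 0.145). The latter stood at 29.8, 26.8 and 35.4 CPM in unablated replicates, against 19.6, 16.8 and 14.1 CPM in ablated ones.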

How the data were processed

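RNA of 12 sorts was made into cDNA and libraries with low-input, full-length kits (SMART-Seq HT and Nextera XT), per the labels' protocols. The authors deposited read counts and TPM values for each gene and library, per the file headers. The assembly was GRCz11, per the submitters' processing notes; aligner, counter and annotation version: not given in the sources used here. CPM was computed from the counts and library totals. Counts were tested with edgeR 4.0.16 (TMM, default expression filter, robust quasi-likelihood) in R 4.3.3, with Benjamini-Hochberg adjustment over all genes tested at 0.05, in the 6 libraries of each time or, between times, in all 12. The SE of an edgeR fold was derived as the absolute log2 fold change over the square root of the test's F statistic. The tests were tried on simulated data. Alternatives were DESeq2 1.42.0, its size factors within edgeR, a strict filter (1 CPM in 3 libraries and a mean of 50 counts), no filter, limma 3.58.1 on log2(TPM + 1), a replicate block, all 12 libraries and omission of each library.

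The genes, their roles, the other lists and these tests were chosen with earlier results of these data known. Genes were named as the 2 genes of highest mean TPM per role, the 5 of smallest p per time and those with 0 counts in a group; other members were named to account for the set, or after their values were seen. At 2 dpi a shared date in the titles pairs equal replicate numbers, whose deviations correlated at r = 0.63, -0.01 and 0.60; at 4 dpi, with 1 date, they gave -0.19, -0.43 and -0.15 and were not taken as pairs. The labels do not say what the dates record. Intervals cover counting error only, since amplified reads are not independent molecules.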

Additional observations from a re-analysis of the deposited data

How the results depend on the processing

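The number of genes of the set called was 0 in each of the 5 edgeR comparisons. It stayed 0 with other size factors, with either filter and with all 12 libraries in 1 fit. With the replicate block it also stayed 0 in the 3 comparisons where that could be fitted. At 4 dpi the block joins equal replicate numbers, which were not taken as pairs. Its values at 4 dpi and for the difference of effects are therefore no check on a pairing there. DESeq2 called 2 at 2 dpi and 2 at 4 dpi, and limma on log2(TPM + 1) called 1 at 4 dpi. Omission of single libraries gave 0 to 7 at 4 dpi, and 0 in the other 4 comparisons. The log2 ratio of the set's summed share was -3.05 at 2 dpi and -0.77 at 4 dpi. It became 0.34 at 2 dpi without the 2 libraries of highest photoreceptor share. That choice was made after seeing the data and took out unablated libraries only, so a shift upwards was built into it. At 4 dpi the log2 ratio ranged from -3.79 to -0.24 when single libraries were omitted. Without prox1a, prkcaa and slc6a9 the mean share was 0.349% in unablated and 0.0369% in ablated libraries at 2 dpi. At 4 dpi these means were 0.101% and 0.0642%. A block could not be fitted for the contrasts between times, since it is numbered within a time and takes up the differences between times. Correlations with the set's share were 0.816 at 2 dpi for photoreceptor genes, 0.911 at 2 dpi and -0.094 at 4 dpi for Müller glia genes, and 0.527 with group means removed and 0.68 at 2 dpi for RPE genes.

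Of 424 comparisons of 16 named genes with their main value, 389 kept direction and side of the threshold, 10 came to pass it and 25 reversed. Omission of single libraries gave ranges, at 2 dpi, of -6.70 to 1.41 for cabp5b, -13.56 to 0.27 for calb2b, -8.48 to 0.085 for vamp1 and -9.38 to 1.05 for vsx1. At 4 dpi they were -0.56 to 2.18 for barhl2, -5.68 to 0.49 for calb2b, -7.83 to 0.54 for neurod1, -0.88 to 1.12 for snap25a and -5.26 to 0.10 for snap25b. For snap25a limma gave -0.034 and the replicate block -0.72 at 4 dpi. Without the 2 libraries of highest photoreceptor share the values at 2 dpi were 6.52 for barhl2, 4.09 for cabp5b, 9.83 for calb2b, 9.94 for neurod1, 4.52 for rbpms2b, 1.95 for snap25b, 3.93 for vamp1 and 13.63 for vsx1, against the lone unablated replicate 3, assumed to vary like the others. That library had 0 counts of vsx1 and barhl2 and 1 each of neurod1, calb2b and rbpms2b, so those sizes depend on the prior count of the fit and are no estimates of a fold. Without these libraries the set's median log2 fold change was 3.097 at 2 dpi, -2.145 for the difference of effects and 4.67 from 2 to 4 dpi in unablated libraries. With the replicate block it was -4.36 and -2.86 at 2 and 4 dpi and 0.54 for the difference, and limma gave -2.48, -1.60 and 0.49, with -0.18 and 0.305 between times in unablated and ablated libraries. The cause of these shifts was not tested.

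Over all genes, edgeR called 0 at 2 dpi, against 1486 by DESeq2, 183 by limma and 1142 with all 12 libraries in the fit. At 4 dpi it called 605, against 2317 by DESeq2, 1224 by limma, 0 with the replicate block, 222 with all 12 libraries, and 0 to 1420 with single libraries omitted. For the difference of effects it called 0, against 80 by DESeq2, 5 without filter, 3 with DESeq2's size factors, 2 by limma and 66 without the 2 libraries. From 2 to 4 dpi it called 157 in unablated libraries, against 281, 260, 352, 1408 and 507 with DESeq2's size factors, the strict filter, limma, DESeq2 and without the 2 libraries. In ablated libraries it called 234, against 113, 355, 73, 1250 and 656 without filter, with the strict filter, by limma, by DESeq2 and without the 2 libraries. With single libraries omitted these counts ran from 14 to 493 and from 0 to 448, and that for the difference of effects from 0 to 19. DESeq2's size factors put the median log2 fold change of all genes at 2 dpi at -0.28, against -0.12. Several ganglion cell genes lay at or under the floor of 3 counts in some libraries. What limits their detection was not tested.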
